A study of Mus musculus with 22 samples.

Results

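The 10 genes described here handle iron and other metals in cells, and they were chosen by name because the pigment neuromelanin binds iron and other metals. No measured value enters that rule, but earlier results of these data were known when it was set. They are the ferritin subunits Fth1 and Ftl1, the importers Tfrc and Slc11a2, the exporter Slc40a1, the regulators Ireb2 and Aco1, and the metallothioneins Mt1, Mt2 and Mt3. All 10 of 10 were among the 12596 genes of the deposited table. RNA was sequenced from 11 mice in 22 libraries. Every mouse came from a cross of Th-cre with Slc6a2-eGFP/Rpl10a on a C57Bl/6 background, so controls and treated animals carried both transgenes. The Slc6a2 promoter, that of the noradrenaline transporter gene, drives a green fluorescent tag on the ribosomal protein Rpl10a, through which ribosomes of noradrenergic cells and the RNA on them can be pulled down. The pull-down gave the immunoprecipitated library (IP, labelled noradrenergic) and the RNA before it gave the input library (labelled total hindbrain). Of the animals, 5 were infused with hTyr, human tyrosinase, which makes neuromelanin in the locus coeruleus per the series title, and 6 received EYFP, a fluorescent protein, as their control. This gives EYFP input (n = 6), EYFP IP (n = 6), hTyr input (n = 5) and hTyr IP (n = 5). Libraries are named as in the labels, such as IP_508 and Pre_508 for the IP and input of 1 animal. Age, sex and the time after infusion are not given in the sources used here.

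Iron enters most cells bound to transferrin through the transferrin receptor, which Tfrc encodes, and leaves the endosome through the divalent metal transporter encoded by Slc11a2. It is stored inside ferritin shells built from heavy (Fth1) and light (Ftl1) subunits, and leaves the cell through ferroportin, the product of Slc40a1. When iron is scarce, the iron regulatory proteins encoded by Aco1 and Ireb2 bind hairpins in messenger RNA called iron-responsive elements. A hairpin in the 5′ untranslated region (5′ UTR) blocks translation, as in ferritin, while hairpins in the 3′ UTR protect the message from decay, as in Tfrc. Metallothioneins are small cysteine-rich proteins that bind zinc and copper, with Mt1 and Mt2 expressed widely and strongly in astrocytes and Mt3 typical of the brain. The noradrenergic neurons of the locus coeruleus are pigmented with neuromelanin in humans and are not visibly so in mice.

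The hairpins are shown because their place differs between the storage and export genes and the importer Tfrc. A search of the annotated UTRs of GRCm38 (GENCODE M21, the same assembly as the mm10 that the submitters name) looked for a 27-base element with an unpaired C, 5 upper stem pairs, the loop CAGTGN, and at least 4 of 5 lower stem pairs, with G-U pairs allowed. It found 7 elements in 4 of the 10 genes. The loop is in capitals, and each sequence is the strand of the gene, 5′ to 3′, as DNA.
Fth1, 5′ UTR, chr19:9982733-9982759, plus strand: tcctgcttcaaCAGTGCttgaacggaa
Ftl1, 5′ UTR, chr7:45459780-45459806, minus strand: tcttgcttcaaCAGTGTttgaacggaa
Slc40a1, 5′ UTR, chr1:45925466-45925492, minus strand: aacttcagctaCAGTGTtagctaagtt
Tfrc, 3′ UTR, chr16:32631220-32631246, plus strand: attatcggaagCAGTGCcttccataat
Tfrc, 3′ UTR, chr16:32631599-32631625, plus strand: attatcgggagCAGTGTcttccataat
Tfrc, 3′ UTR, chr16:32631664-32631690, plus strand: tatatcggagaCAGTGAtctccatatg
Tfrc, 3′ UTR, chr16:32631711-32631737, plus strand: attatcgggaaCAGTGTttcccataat

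The Fth1 element lies in 3 of 3 coding transcripts, that of Ftl1 in 1 of 2, that of Slc40a1 in 1 of 1, and those of Tfrc in 1 of 2. Over all genes the same search matched the 5′ UTR of 5 of 11801 genes (0.0424%), of which 3 are described here, and the 3′ UTR of 7 of 11966 genes (0.0585%), of which 1 is Tfrc. Alas2, the heme synthesis enzyme of red cell precursors, was among the other matches. No match was found in the annotated UTRs of Slc11a2, Ireb2, Aco1 or the metallothioneins, which says only that this pattern is not in these windows. The search asked for all 5 upper stem pairs, so an element with a bulge or mismatch there would be missed. The metallothionein genes are neighbours on the plus strand of chromosome 8, with Mt3 at chr8:94152607-94154146, Mt2 at chr8:94172664-94173568 and Mt1 at chr8:94179082-94180327. The other genes without a match to this pattern are Slc11a2 at chr15:100387898-100425072 on the minus strand, and Ireb2 at chr9:54863789-54912530 and Aco1 at chr4:40143081-40198338 on the plus strand.

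Levels are given as log2 CPM, the log2 of read counts scaled to a common library size with a small pseudocount, and, to compare genes, as CPM per kilobase of 1 chosen transcript per gene. Fth1 was among the most abundant messages of every library, at ranks 2 to 9 of 12375 genes by CPM per kilobase. In EYFP input its median was 3657 CPM per kilobase, against 559 for Ftl1. Mt1 (841), Mt3 (813) and Mt2 (432) also stood high, and the libraries of Mt1 and Mt3 overlapped, as did those of Ftl1 and Mt2. Far lower came Slc11a2 at 14.9, Tfrc at 8.46, Aco1 at 5.42, Ireb2 at 4.66 and Slc40a1 at 1.63. Neighbours in this lower part did not overlap between Slc11a2 and Tfrc or between Ireb2 and Slc40a1, but Tfrc, Aco1 and Ireb2 overlapped in turn. The order changed in the IP, where Mt3 (864 in EYFP IP) stood before Mt1 (640), with overlapping libraries, and Tfrc (13.4) before Slc11a2 (13), also overlapping. Slc40a1 was last in all 4 groups, with 46 to 67 reads in the hTyr IP libraries.

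**Figure D1:**
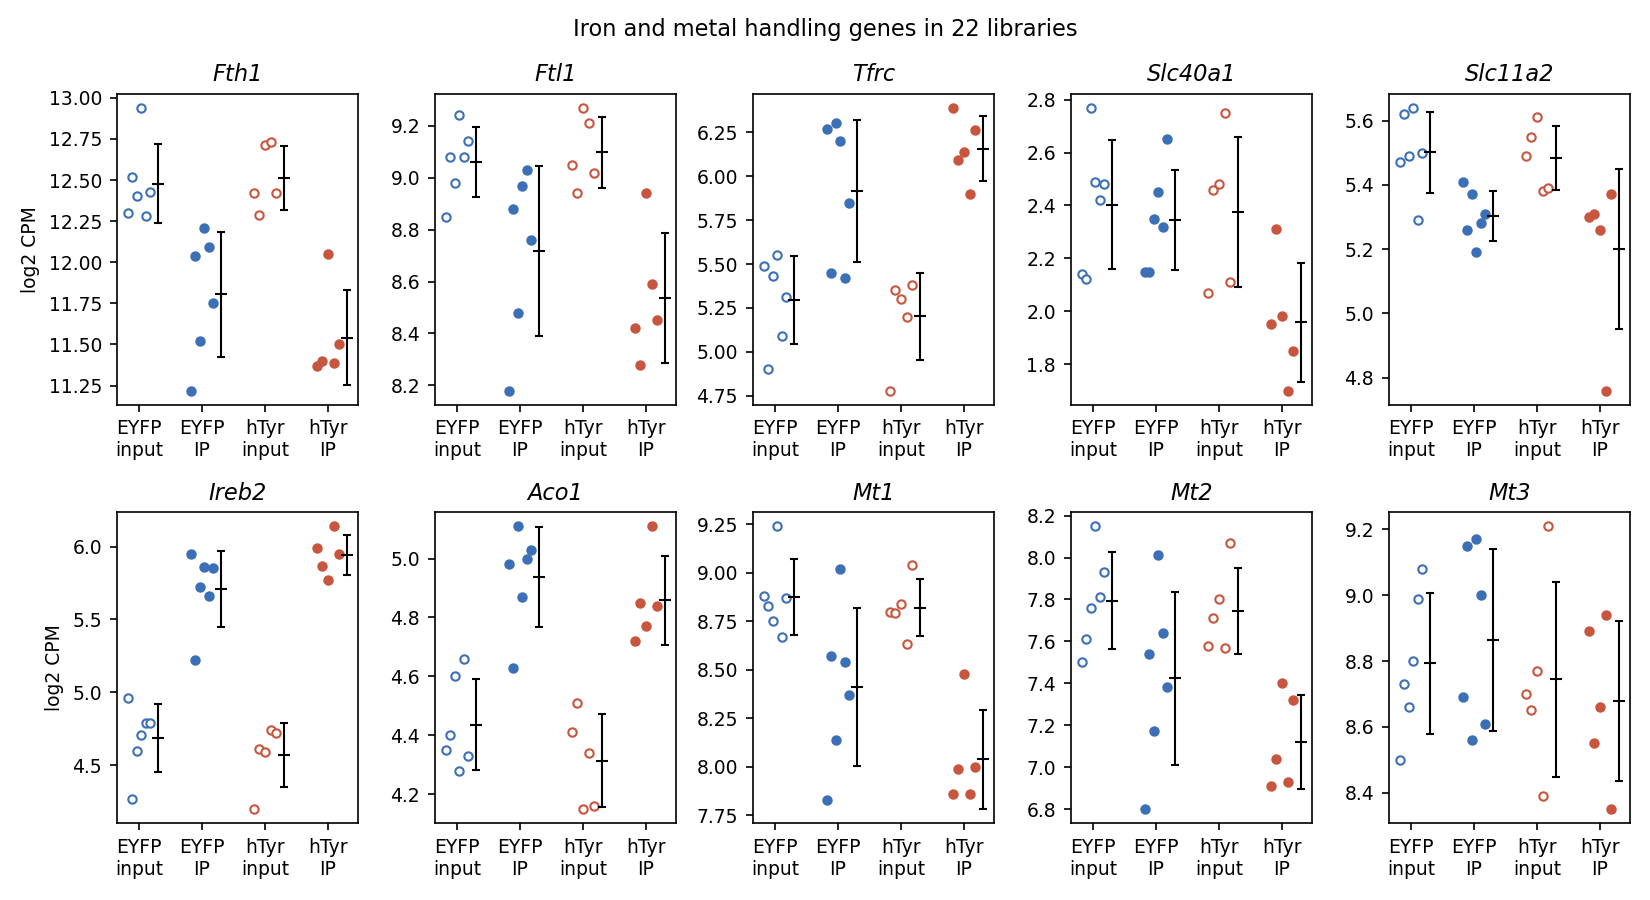
Level of each of the 10 genes (log2 CPM, each panel with its own axis) in the 22 libraries by group, with open circles for input, filled circles for IP, blue for EYFP and red for hTyr; bars are mean and SD. Fth1, Ftl1, Mt1 and Mt2 sit lower in the IP and Tfrc, Ireb2 and Aco1 higher, while hTyr and EYFP libraries of the same fraction overlap for every gene.

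The libraries held 12654489 to 25100142 reads in the table. The pull-down raised noradrenergic messages without removing those of other cells. Markers are counted here as higher or lower only where they passed in limma (adjusted p under 0.05 over all genes). By that count 28.5% of all genes were higher and 28.1% lower in EYFP IP, and 27.4% and 27% in hTyr IP. The summed level of 10 noradrenergic markers was 130.2 to 163.4 CPM in EYFP input and 529.2 to 1170 CPM in EYFP IP, and 136.1 to 173.5 against 664.6 to 1936 CPM in hTyr, with 10 of 10 markers higher in the IP in both. Oligodendrocyte markers still summed to 6258 to 8038 CPM in EYFP IP (6704 to 8807 in input; 2 of 10 higher and 5 lower) and to 6135 to 8577 in hTyr IP (7536 to 9332 in input; 3 higher and 5 lower). Astrocyte markers summed to 3149 to 4481 CPM in EYFP IP (2809 to 3372 in input; 4 of 10 higher and 1 lower) and to 3423 to 4311 in hTyr IP (2883 to 3584 in input; 5 higher and 2 lower). Of 10 microglial markers 0 were higher and 1 lower in EYFP IP, and 2 higher and 1 lower in hTyr IP. Of 8 endothelial markers 2 were higher in EYFP IP and 4 in hTyr IP, with 0 lower in either. Of 6 meningeal and ependymal markers 1 was higher and 2 lower in EYFP IP, and 1 higher and 3 lower in hTyr IP. No marker stood at 0 reads in any group. The part of these cells in the differences between IP and input was not tested, and in such mixed RNA fewer cells of a type and less RNA per cell cannot be told apart. The IP is also RNA pulled down on tagged ribosomes, while the input is the RNA before that step. A difference between cell types and a difference in ribosome loading of a message therefore cannot be told apart either.

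The comparison of IP with input asks how the RNA pulled down on tagged ribosomes differs from the RNA of the hindbrain tissue before the pull-down. The messages of both ferritin subunits, Slc11a2 and Mt1 were lower in the IP in both treatments, and those of Tfrc and both iron regulatory proteins were higher. Mt2 was lower past the threshold in hTyr, and Slc40a1 and Mt3 passed in neither. In EYFP animals 7 of the 10 genes passed (limma, adjusted p under 0.05 over all genes), with 3 higher and 4 lower, where 56.5% of all genes passed, 28.5% higher and 28.1% lower. In hTyr animals 8 passed, with 3 higher and 5 lower, where 54.4% of all genes passed, 27.4% higher and 27% lower. The median change of the 10 genes was -0.13 in EYFP and -0.35 in hTyr on the log2 scale. Of the 10 genes 3 were higher in the IP in all 11 animals and 5 were lower in all 11, where 22.8% and 21.4% of all genes were. IP and input libraries did not overlap for 2 of the 10 in EYFP and for 8 in hTyr, against 30.1% and 37.5% of all genes, and 8 of 10 had an unadjusted p under 0.05 in each, against 61.6% and 59.6%.

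Fth1, whose heavy subunit oxidises iron for storage, ran from 12.28 to 12.94 log2 CPM in EYFP input, with a median of 12.42. In EYFP IP it ran from 11.22 to 12.21, with a median of 11.90. These groups did not overlap. In hTyr animals the input values were 12.42, 12.29, 12.71, 12.73 and 12.42, and the IP values of the same animals were 11.37, 11.40, 12.05, 11.39 and 11.50 log2 CPM. All 5 IP libraries lay below all 5 input libraries, and IP_508 was the highest of the IP. Fth1 was lower in the IP by a log2 change of -0.67 in EYFP (SE 0.16, limma adjusted p = 0.0021), to 0.627 of input, and of -0.97 in hTyr (SE 0.14, adjusted p = 1.99e-05), to 0.51 of input. The fall was in all 11 animals, from -0.19 in the animal of IP_511 to -1.34 in that of IP_509. Under quantile normalization the EYFP change was -0.21 (adjusted p = 0.234) and no longer passed, and the hTyr change was -0.56 (adjusted p = 0.000886).

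Ftl1, the light subunit that helps the iron core form, moved the same way by less. In EYFP it ran from 8.85 to 9.24 log2 CPM in input (median 9.08) and from 8.18 to 9.03 in IP (median 8.82). The groups overlapped. In hTyr the input values were 9.05, 8.94, 9.27, 9.21 and 9.02 and the IP values 8.42, 8.28, 8.94, 8.59 and 8.45 log2 CPM. Here the highest IP library touched the level of the lowest input library at 8.94 without passing it. The log2 change was -0.35 in EYFP (SE 0.12, limma adjusted p = 0.0247) and -0.56 in hTyr (SE 0.11, adjusted p = 0.000452). The EYFP call was lost without the animal of IP_506 (-0.31, adjusted p = 0.0727) and without that of IP_512 (-0.34, adjusted p = 0.0641). Within a library Fth1 exceeded Ftl1 by 2.79 ± 0.17 on the log2 scale of CPM per kilobase in EYFP input and by 2.46 ± 0.10 in EYFP IP (SD, n = 6), and by 2.79 ± 0.07 and 2.38 ± 0.14 in hTyr (SD, n = 5). This difference between the ferritin messages overlapped between input and IP in EYFP and did not in hTyr. Both ferritin genes have processed copies elsewhere in the genome, so how reads were shared with those copies is uncertain.

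Tfrc, which takes up transferrin-bound iron, was higher in the IP. In EYFP it ran from 4.90 to 5.55 log2 CPM in input (median 5.37) and from 5.42 to 6.30 in IP (median 6.03). The animals of IP_505 and IP_511 were low in both fractions, and the groups overlapped. In hTyr the input values were 4.78, 5.35, 5.30, 5.20 and 5.38 and the IP values 6.39, 6.09, 6.14, 5.90 and 6.26 log2 CPM, with no overlap. The log2 change was 0.62 in EYFP (SE 0.16, limma adjusted p = 0.00368), a 1.54-fold rise, and 0.96 in hTyr (SE 0.12, adjusted p = 5.26e-06), a 1.94-fold rise. Tfrc has little GC (39.8% of its transcript, percentile 3.5 among all genes), and across all genes the change from input to IP fell with GC content (Spearman's rho -0.34 in EYFP and -0.44 in hTyr across 12375 genes, which are not independent). With the trend on length and GC removed, the Tfrc change was 0.19 in EYFP (adjusted p = 0.213, or 0.00979 with the animal as replicate block) and 0.34 in hTyr (adjusted p = 0.0121).

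Slc11a2, which carries iron out of the endosome, was slightly lower in the IP. It stood between 5.29 and 5.64 log2 CPM in EYFP input and between 5.19 and 5.41 in EYFP IP, with a log2 change of -0.20 (SE 0.07, limma adjusted p = 0.0263). In hTyr it stood between 5.38 and 5.61 in input and between 4.76 and 5.37 in IP, with a change of -0.28 (SE 0.11, adjusted p = 0.0414). IP was below input in all 11 animals, by 0.01 to 0.62. Both calls were lost with the length and GC trend removed (-0.15 with adjusted p = 0.0625, and -0.22 with adjusted p = 0.0803), and single animals decided them: the adjusted p was 0.0774, 0.122 and 0.0641 without the EYFP animals of IP_505, IP_507 and IP_512, and 0.0598, 0.0848, 0.112 and 0.0987 without the hTyr animals of IP_501, IP_502, IP_508 and IP_509.

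Slc40a1, the only known iron exporter, did not pass in either comparison. Its values ran from 2.12 to 2.77 log2 CPM in EYFP input and from 2.15 to 2.65 in EYFP IP, and the change was -0.06 (SE 0.14, limma adjusted p = 0.742). In hTyr it ran from 2.07 to 2.75 in input and from 1.70 to 2.31 in IP, a change of -0.41 (SE 0.21, adjusted p = 0.104), with IP below input in 5 of 5 hTyr animals and in 3 of 6 EYFP animals. With the length and GC trend removed the hTyr change was -0.76 (adjusted p = 0.00421).

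Ireb2, which encodes an iron regulatory protein that is degraded when iron is plentiful, had the largest change of the 10 genes on the deposited scale. In EYFP it ran from 4.27 to 4.96 log2 CPM in input (median 4.75) and from 5.22 to 5.95 in IP (median 5.78). In hTyr the input values were 4.20, 4.61, 4.59, 4.74 and 4.72 and the IP values 5.99, 5.87, 5.77, 6.14 and 5.95 log2 CPM. In neither treatment did IP and input overlap. The log2 change was 1.03 in EYFP (SE 0.12, limma adjusted p = 6.81e-06), a 2.04-fold rise, and 1.37 in hTyr (SE 0.11, adjusted p = 5.64e-08), a 2.59-fold rise. Ireb2 too has little GC (39.0%, percentile 2.2), and with the length and GC trend removed the changes were 0.54 and 0.69, with both still past the threshold but smaller in size than those of Fth1 (-0.66 and -0.92).

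Aco1, which encodes a cytosolic aconitase that becomes an RNA-binding regulator when it loses its iron-sulfur cluster, rose by less. In EYFP it ran from 4.28 to 4.66 log2 CPM in input (median 4.38) and from 4.63 to 5.11 in IP (median 4.99). In hTyr the input values were 4.41, 4.51, 4.15, 4.34 and 4.16 and the IP values 4.72, 4.85, 4.77, 5.11 and 4.84 log2 CPM. The hTyr groups did not overlap, and in EYFP only the lowest IP library, IP_505, lay below the highest input library. The log2 change was 0.50 in EYFP (SE 0.09, limma adjusted p = 0.00029) and 0.54 in hTyr (SE 0.11, adjusted p = 0.000466), and it passed under all alternatives tried. Its GC content of 52.1% is near the middle of all genes. Within a library the level of Ireb2 less that of Aco1, on the log2 scale of CPM per kilobase, was -0.34 ± 0.29 in EYFP input and 0.18 ± 0.18 in EYFP IP (SD, n = 6). It was -0.33 ± 0.31 and 0.49 ± 0.11 in hTyr (SD, n = 5), with no overlap between input and IP there.

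Mt1 fell in the IP. In EYFP it ran from 8.67 to 9.24 log2 CPM in input (median 8.85) and from 7.83 to 9.02 in IP (median 8.45). In hTyr the input values were 8.80, 8.79, 8.84, 8.63 and 9.04 and the IP values 7.86, 7.99, 8.48, 7.86 and 8.00 log2 CPM. The hTyr groups did not overlap, while in EYFP IP_507 stood among the input libraries. The log2 change was -0.46 in EYFP (SE 0.15, limma adjusted p = 0.0163; -0.34 and adjusted p = 0.0576 without the animal of IP_504) and -0.78 in hTyr (SE 0.11, adjusted p = 2.33e-05).

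Mt2 showed the same course. In EYFP it ran from 7.50 to 8.15 log2 CPM in input (median 7.79) and from 6.80 to 8.01 in IP (median 7.46). In hTyr the input values were 7.58, 7.71, 7.80, 7.57 and 8.07 and the IP values 6.91, 7.04, 7.40, 6.93 and 7.32 log2 CPM, with no overlap. The log2 change was -0.37 in EYFP (SE 0.16, limma adjusted p = 0.0562) and did not pass, though IP was below input in 6 of 6 animals and the fit with the animal as replicate block gave adjusted p = 0.00065. In hTyr it was -0.63 (SE 0.11, adjusted p = 0.000215). Mt1 and Mt2 are close in sequence, so reads that match both may have been assigned either way or dropped.

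Mt3, the brain metallothionein, did not pass the test in EYFP or hTyr. It ran from 8.50 to 9.08 log2 CPM in EYFP input and from 8.56 to 9.17 in EYFP IP, a change of 0.07 (SE 0.12, 95% interval -0.19 to 0.33, limma adjusted p = 0.647). In hTyr it ran from 8.39 to 9.21 in input and from 8.35 to 8.94 in IP, a change of -0.06 (SE 0.14, interval -0.35 to 0.22, adjusted p = 0.707). The IP was higher in 6 animals and lower in 5. Within a library the level of Mt1 less that of Mt3, on the log2 scale of CPM per kilobase, was 0.05 ± 0.31 in EYFP input and -0.49 ± 0.25 in EYFP IP (SD, n = 6). The corresponding hTyr values were 0.04 ± 0.15 and -0.68 ± 0.40 (SD, n = 5). Mt3 is short and, at 62.3% GC, lies at percentile 98.1 among all genes, and with the length and GC trend removed and the animal as block its EYFP change was 0.17 (adjusted p = 0.036). The hTyr change turned to 0.18 with that trend removed (adjusted p = 0.162, or 0.127 with the block).

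**Figure D2:**
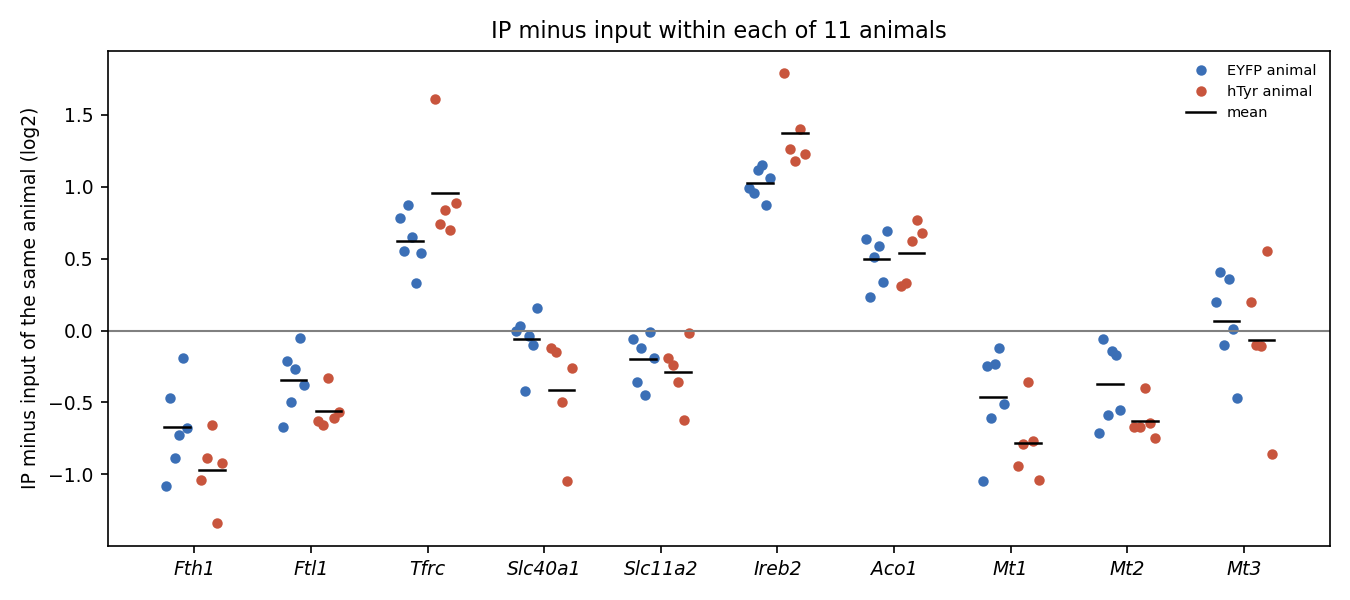
IP minus input of the same animal (log2, y axis) for each of the 10 genes, with 1 point per animal, blue for 6 EYFP and red for 5 hTyr animals, and black lines for the means. All 11 points lie below 0 for Fth1, Ftl1, Slc11a2, Mt1 and Mt2 and above 0 for Tfrc, Ireb2 and Aco1, while Slc40a1 and Mt3 straddle it.

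The IP libraries differed from each other in how strongly noradrenergic messages were enriched, and the levels of Fth1 and Ftl1 fell as it rose. The mean of the 10 noradrenergic markers ran from 5.13 log2 CPM in IP_511 of EYFP to 7.02 in IP_501 of hTyr. Over the 11 IP libraries Fth1 fell with it (Pearson's r -0.71, permutation p = 0.00496, adjusted over 10 relations 0.0241; Spearman's rho -0.89, permutation p = 0.00052, adjusted 0.0026), and r was -0.70 without the 2 libraries farthest from the median and -0.84 within the 6 EYFP libraries. Ftl1 gave r -0.73 (permutation p = 0.00806, adjusted 0.0241; rho -0.91, p = 0.00036, adjusted 0.0026), then -0.79 and -0.83. Both ferritin relations kept their sign in those subsets.

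Mt1 gave r -0.67 (permutation p = 0.00964, adjusted 0.0241; rho -0.85, p = 0.00136, adjusted 0.0034), -0.58 without the 2 farthest and -0.74 within EYFP. Mt2 gave r -0.70 (permutation p = 0.00768, adjusted 0.0241; rho -0.86, p = 0.00106, adjusted 0.0034), then -0.60 and -0.79. These permutation p-values are 2-sided as 2 times the smaller tail. Counting permutations by the size of r alone instead, the adjusted values were 0.0472 for Fth1 and Ftl1 and missed the threshold for Mt1 (0.0586) and Mt2 (0.0523), so the Pearson calls of the metallothioneins depend on that definition. The other 6 genes did not pass: Tfrc had r 0.56 (permutation p = 0.0373, adjusted 0.0745), Ireb2 0.44, Slc11a2 0.25, Slc40a1 -0.14, Aco1 -0.21 and Mt3 -0.27. By Spearman's rho they did not pass either, with Ireb2 closest (rho 0.67, permutation p = 0.0279, adjusted 0.0558). Slc11a2 had rho 0.56, Tfrc 0.50, Mt3 -0.48, Slc40a1 -0.30 and Aco1 -0.09. Some r values moved in the subsets: Mt3 was at -0.63 without the 2 farthest libraries and -0.66 within EYFP, close to Mt1 and Mt2, and Slc11a2 was at 0.14 and 0.70. Among all genes 2.32% had an r as low as that of Fth1 or lower, 1.96% as that of Ftl1, 3.99% as that of Mt1 and 2.68% as that of Mt2. The 5 hTyr libraries alone are too few for a test. Within them r was -0.57 for Fth1, -0.63 for Ftl1, -0.55 for Mt1 and -0.64 for Mt2. For the others it was 0.64 (Tfrc), 0.33 (Slc40a1), 0.35 (Slc11a2), 0.13 (Ireb2), -0.49 (Aco1) and 0.29 (Mt3). Mt3, Aco1 and Slc40a1 thus had the opposite sign to that within EYFP (-0.66, 0.26 and -0.01).

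**Figure D3:**
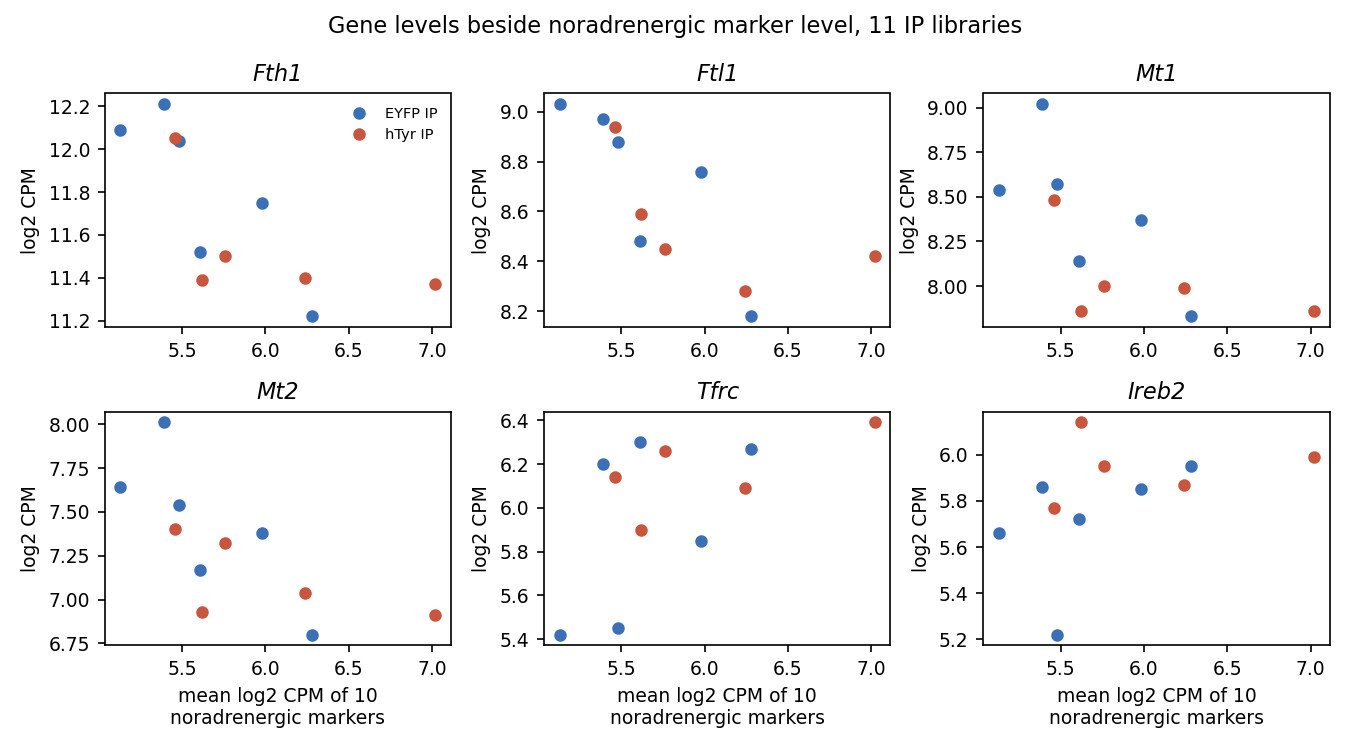
Level of 6 of the genes (log2 CPM, y axes) against the mean log2 CPM of 10 noradrenergic markers (x axes) in the 11 IP libraries, blue for EYFP and red for hTyr. Fth1, Ftl1, Mt1 and Mt2 are lower in libraries with higher marker levels, with r between -0.67 and -0.73, and the relation of Tfrc and Ireb2 did not pass.

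The comparison of hTyr with EYFP asks what tyrosinase changes in the same fraction. In the IP 0 of the 10 genes passed, where 0.0556% of all genes did (7 genes). At an unadjusted p under 0.05 it was 1 of 10, namely Mt1, against 6.19% of all genes. In no gene did the groups separate, against 0.651% of all genes. In the estimates 8 were lower and 2 higher in hTyr, with a median of -0.18 and a range from -0.39 to 0.24 on the log2 scale. The median over all genes was -0.01. Across all genes this difference fell with GC content (Spearman's rho -0.27 across 12375 genes, which are not independent). The 2 higher genes, Tfrc and Ireb2, lie at GC percentiles 3.5 and 2.2, and the 8 lower from 14.6 (Slc40a1) to 98.1 (Mt3). The part of this trend in the 8 and 2 was not tested.

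Mt1 stood at 8.04 ± 0.26 log2 CPM over the 5 hTyr IP libraries and 8.41 ± 0.41 over the 6 of EYFP (mean ± SD). It differed by -0.37 (SE 0.17, 95% interval -0.73 to -0.02), with an unadjusted p of 0.0403 and an adjusted p of 0.791 in limma. Mt2 differed by -0.30 (SE 0.17, interval -0.65 to 0.05) and Mt3 by -0.18 (interval -0.46 to 0.10). The exporter Slc40a1 stood at 1.96 ± 0.23 and 2.34 ± 0.19 log2 CPM in the same groups (mean ± SD), and differed by -0.39 (SE 0.18, interval -0.78 to 0.00, adjusted p = 0.803). The lowest EYFP libraries, at 2.15, were below the highest hTyr library, at 2.31. Fth1 differed by -0.26 (interval -0.63 to 0.11, adjusted p = 0.855) and Ftl1 by -0.18 (interval -0.49 to 0.13). Tfrc differed by 0.24 (interval -0.10 to 0.58), Ireb2 by 0.23 (interval -0.01 to 0.48, adjusted p = 0.808), Slc11a2 by -0.10 (interval -0.33 to 0.12) and Aco1 by -0.08 (interval -0.30 to 0.14). None of these intervals reaches a 2-fold change, and smaller differences inside them are not excluded. Which differences under 2-fold these animals could show was not tested. The mean of the noradrenergic markers was 6.02 ± 0.63 in hTyr IP (SD, n = 5) and 5.65 ± 0.42 in EYFP IP (SD, n = 6), and its part in these differences was not tested.

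In input 0 of the 10 genes passed, and 0 of 10 had an unadjusted p under 0.05, where 0.00794% and 3.03% of all genes did. The differences lay between -0.12 for Aco1 (95% interval -0.32 to 0.08) and 0.03 for Fth1 (interval -0.23 to 0.30). The test of whether hTyr changed the IP differently from the input called 0 of the 10 genes, against 0.00794% of all genes, and 0 at an unadjusted p under 0.05. The largest such differences were 0.35 for Ireb2 (SE 0.18, interval -0.02 to 0.71), -0.35 for Slc40a1 (SE 0.23, interval -0.83 to 0.12), 0.33 for Tfrc and -0.32 for Mt1, each with adjusted p = 0.996. This fit did not use the pairing by animal. Within animals, IP minus input of Ireb2 ran from 0.87 to 1.15 in EYFP and from 1.18 to 1.79 in hTyr, without overlap. Those of Fth1, Tfrc and Mt1 overlapped between the treatments. The share of all genes that separate in this way was not counted. With the animal as replicate block none of the 10 passed either. So the larger IP changes of Fth1, Tfrc, Ireb2 and Mt1 in hTyr than in EYFP animals were not shown to differ after adjustment.

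**Figure D4:**
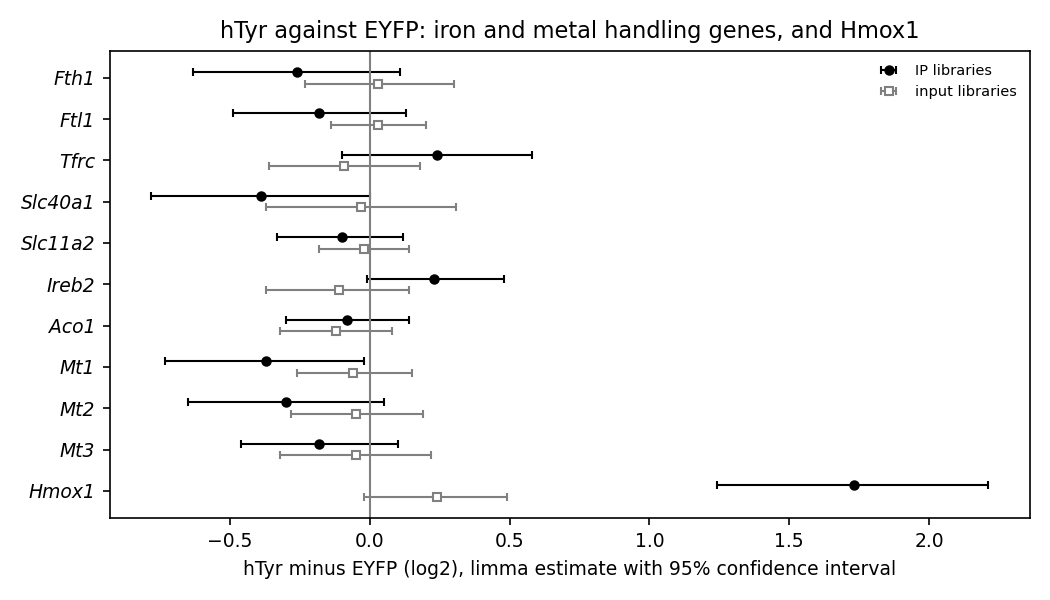
Difference between hTyr and EYFP (log2, x axis) with its 95% confidence interval for the 10 genes and Hmox1, in IP (filled circles) and input (open squares). Of the 10 genes 9 have intervals that include 0 in the IP and Mt1 ends at -0.02, and none passed after adjustment, while Hmox1 in the IP stands at 1.73.

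Of 120 other genes of metal handling listed by function, 98 were in the table. These lists were made with earlier results of these data known, and Hmox1 was to be named whatever its value. Between hTyr and EYFP in the IP, 1 of the 98 passed, where 0.0556% of all genes did (7 genes). It was Hmox1, which encodes the heme oxygenase that frees iron from heme. Its log2 difference was 1.73 (SE 0.23, limma adjusted p = 0.00566), with hTyr libraries between 4.29 and 6.03 log2 CPM and EYFP libraries between 3.08 and 3.28. With the 25% of genes of lowest level left out it was no longer among those tested. In input 0 of the 98 passed, and in the test of the difference between fractions 0 passed, against 0.00794% of all genes in each. Hmox1 came closest there (1.49, SE 0.28, limma adjusted p = 0.0765), and it passed with the animal as replicate block (adjusted p = 0.0188), as well as without the animal of IP_501 (1.18, adjusted p = 0.0343), IP_508 (1.63, adjusted p = 0.0337) or IP_510 (1.65, adjusted p = 0.0394).

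From input to IP, 46 of the 98 passed in EYFP (30 higher, 16 lower) and 47 in hTyr (25 higher, 22 lower), against 56.5% and 54.4% of all genes. By direction, 28.5% of all genes passed as higher and 28.1% as lower in EYFP, and 27.4% and 27% in hTyr. These shares stand beside the counts of every list below, which are also of genes that passed. Of 18 genes of iron uptake, release and regulation, 7 were higher and 4 lower in EYFP, and 6 and 4 in hTyr. The higher ones included Ncoa4, the receptor that delivers ferritin for breakdown (log2 change 0.86 in EYFP and 1.00 in hTyr), and the iron oxidases Cp (0.80 and 1.07) and Heph (0.75 and 0.81). The lower ones included the mitochondrial iron importers Slc25a37 (-1.02 and -1.20) and Slc25a28 (-0.43 and -0.69), and the poly(C)-binding protein Pcbp2 (-0.45 and -0.41). Trf, which encodes transferrin, did not pass in EYFP (0.21, limma adjusted p = 0.15; adjusted p = 0.0155 with the replicate block) or hTyr (0.18, adjusted p = 0.203), and neither did Fbxl5, which encodes the iron sensor that targets Ireb2 protein for degradation (0.13 and 0.10).

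Of 18 heme genes, 6 were higher and 3 lower in EYFP, and 7 and 2 in hTyr. The biliverdin reductases Blvra (0.92 and 0.77) and Blvrb (0.52 and 0.62) and the heme synthesis enzyme Urod (0.57 and 0.49) rose, while the heme transporter Slc48a1 fell (-0.49 and -0.55), as did the synthesis enzyme Cpox (-0.26 and -0.34). Abcb10, a mitochondrial transporter, fell in EYFP (-0.26) and stood at -0.22 in hTyr (limma adjusted p = 0.0525; adjusted p = 0.0459 with the replicate block), and its EYFP call was lost with the length and GC trend removed (-0.15, adjusted p = 0.0666). Hmox1 did not pass in EYFP (0.15, adjusted p = 0.26) and rose in hTyr (1.64, adjusted p = 2.68e-05).

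Of 28 iron-sulfur cluster genes, 9 were higher and 3 lower in EYFP, and 4 and 6 in hTyr. Hspa9, the mitochondrial chaperone used in cluster transfer (1.41 and 1.56), and Ciao1 of the cytosolic assembly complex (0.71 and 0.77) rose. Isca1 (-0.44 and -0.45), Fam96a (-0.49 and -0.45) and Lyrm4 (-0.24 and -0.30) fell, of which Lyrm4 lost its EYFP call without the animal of IP_504 (-0.21, limma adjusted p = 0.0681) or IP_506 (-0.21, adjusted p = 0.0785) and its hTyr call without that of IP_502 (-0.30, adjusted p = 0.0506) or IP_510 (-0.22, adjusted p = 0.0853).

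Of 22 zinc and manganese genes, 7 were higher and 5 lower in EYFP, and 7 and 6 in hTyr. Mtf1, the zinc-sensing factor that activates metallothionein genes, fell (-0.38, limma adjusted p = 0.000912, and -0.43, adjusted p = 0.00176), in the same direction as Mt1. The zinc importers Slc39a12 (0.82 and 0.94), Slc39a6 (0.78 and 0.86) and Slc39a10 (0.48 and 0.78) rose, and Slc39a1 fell (-0.46 and -0.44). Slc39a13 fell (-0.29 and -0.27), but not with the length and GC trend removed (-0.14 with adjusted p = 0.107, and -0.04 with adjusted p = 0.7), and its hTyr call was lost without the animal of IP_501 (-0.20, adjusted p = 0.108) or IP_502 (-0.29, adjusted p = 0.0542). Of 12 copper genes, 1 was higher and 1 lower in EYFP, and 1 and 4 in hTyr. The copper chaperone for superoxide dismutase, Ccs, rose in EYFP (0.50, adjusted p = 0.000322) and stood at 0.25 in hTyr (adjusted p = 0.113), and Cox11, which helps insert copper into cytochrome oxidase, fell (-0.51 and -0.44).

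**Figure D5:**
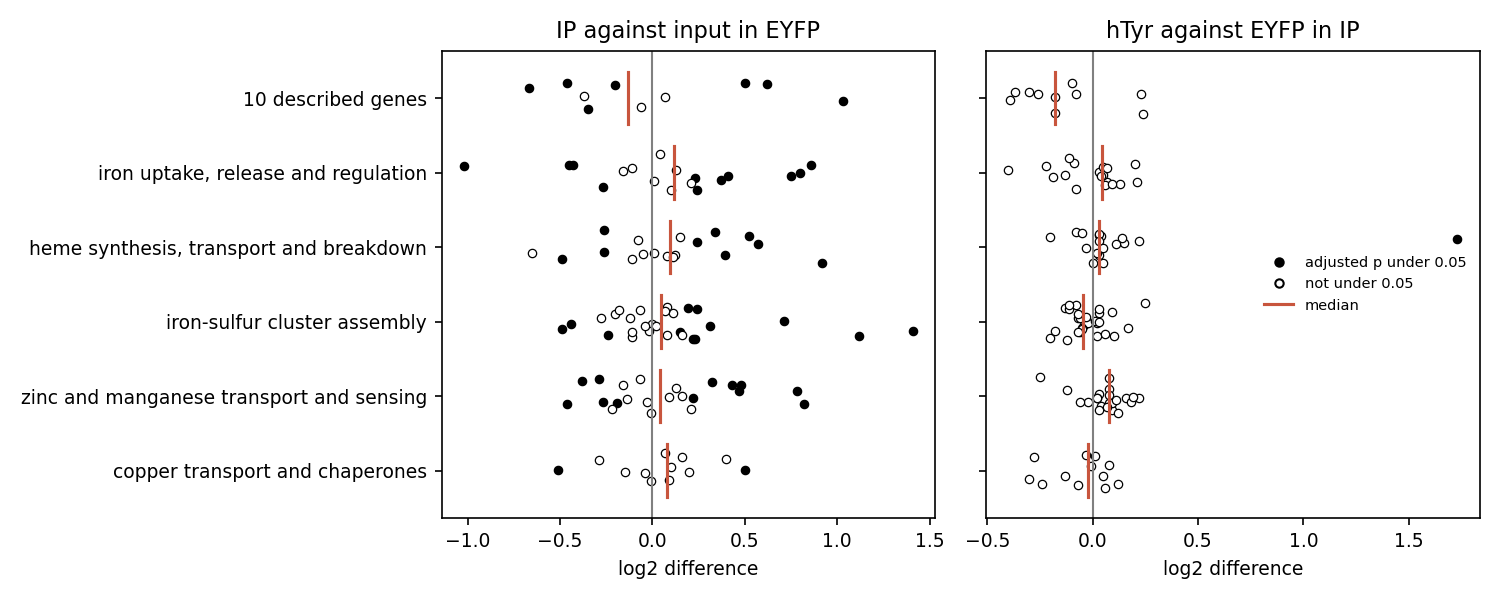
Log2 difference (x axis) of each gene by list, for IP against input in EYFP animals (left) and hTyr against EYFP in the IP (right), with filled circles for adjusted p under 0.05, open circles for the rest and red lines for the list medians. On the left each list has genes on both sides of 0, and on the right Hmox1 at 1.73 is the single filled circle.

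Among the libraries, after subtraction of the 4 group means, the ferritin genes varied together (Pearson's r 0.91 over 22 libraries), as did Mt1 and Mt2 (0.89) and Fth1 and Mt1 (0.84). Tfrc varied with Ireb2 (0.62), and Mt3 less with Mt1 (0.40). These values are descriptions over libraries that share animals, depth and composition. Ranked over all genes, the most alike to Fth1 were Ftl1 (0.91), Cfp (0.90) and Tsc22d4 (0.89), and to Ftl1 Dtnbp1 (0.91), Fth1 and Metrn (0.90). Those of Tfrc were Erap1 (0.87), Dnajc10 (0.86) and Abca5 (0.85), and those of Ireb2 were Cops2 (0.93), Ranbp6 (0.92) and Negr1 (0.92). Aco1 was most alike to Mthfd1 (0.81), Ndrg1 (0.80) and Oplah (0.78). Slc11a2 was most alike to Susd2 (0.83), Tmem184b and Hist2h3c1 (both 0.78), and Slc40a1 to Phtf2 (0.75), Trpm2 and Sema6a (both 0.74). Mt1 was most alike to Mt2 (0.89) and the mitochondrially encoded ATP6 (0.87) and COX2 (0.86). Mt2 was most alike to the myelin gene Mobp (0.90), Mt1 (0.89) and the ribosomal protein gene Rpl28 (0.88). Mt3 was most alike to the ribosomal protein gene Rpl41, D8Ertd738e and Gpx4 (each 0.93).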

How the data were processed

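The authors' table holds log2 values of 12596 genes in 22 libraries, filtered and normalized by steps not given in the sources used here. STAR, featureCounts and mm10 are named in the submitters' processing notes, without versions. Back-transformed, the deposited log2 values were CPM with a pseudocount averaging 2.00 reads, and 100% came out as whole reads within 0.1 read, which gave the depth of each library. Levels per kilobase used 12375 genes (98.2%) with a GENCODE M21 transcript. limma 3.58.1 (R 4.3.3, moderated with a trend) was fitted on all genes for each comparison within its own libraries, with Benjamini-Hochberg adjustment over all genes and a threshold of 0.05. The main fits of IP against input and of the test between fractions did not use the pairing of libraries by animal. That pairing entered only the alternatives with the replicate block. Relations with the noradrenergic markers used 100000 permutations. On simulated data the IP fit called 91% of 2-fold and 100% of 4-fold changes. That simulation changed many genes at once, with independent noise and the spread of the EYFP IP libraries. The share called with few changed genes, or of changes under 2-fold, was not tested.

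Members and lists were chosen with earlier results of these data known. The text names all 10 genes. Of each other list it takes the genes that passed between hTyr and EYFP or in the test between fractions, up to 3 with the largest rise and 3 with the largest fall among those passing from input to IP in EYFP, and Hmox1, Trf, Cp, Ncoa4, Fbxl5 and Mtf1. It also takes the 3 genes most alike to each of the 10. A gene that this rule takes is not reported here. Libraries of 1 animal deviated together (mean r 0.448, from 0.279 to 0.626, against -0.0428 between animals), and 11 of 11 IP libraries were closest to their own input. The pairing comes from the animal numbers in the labels. Alternatives changed the scaling, prior variance, low-level filter, pseudocount, sample weights, shared spread, length and GC trend, replicate block and single animals, and voom on the recovered reads was added after seeing the data.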

Additional observations from a re-analysis of the deposited data

Results flagged for a closer look

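In 8 of 156 groups of libraries 1 library stood far from the rest, where chance gives about 5% (7.8 groups). Fth1 stood at 12.94 log2 CPM in Pre_507 of EYFP input, against 12.52 in the next library. Both Fth1 (12.05, next 11.50) and Mt1 (8.48, next 8.00) were highest in IP_508 of hTyr IP. Slc11a2 was lowest in IP_509 of hTyr IP, at 4.76 (395 reads) against 5.26. Ireb2 was lowest in Pre_501 of hTyr input, at 4.20 against 4.59. Hmox1 was lowest in Pre_504 of EYFP input, at 2.65 against 3.02, where Slc39a10 was highest, at 5.87 against 5.63. Hspa9 was highest in Pre_510 of hTyr input, at 7.32 against 6.87.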

How the results depend on the processing

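Over the alternatives run for the 10 genes, 866 of 935 values kept their direction and side of the threshold, 15 came to pass it, 17 no longer passed and 37 changed sign, and the cause was not tested. In no alternative did any of the 10 pass between hTyr and EYFP in either fraction or in the test between fractions. From input to IP, 5 to 8 passed in EYFP and 7 to 9 in hTyr. The replicate block alone changed the call of Mt2 in EYFP (-0.37, adjusted p = 0.00065) and no other of the 10. With the length and GC trend also removed, it further changed those of Tfrc (0.19, adjusted p = 0.00979 against 0.213) and Mt3 (0.17, 0.036 against 0.0504) in EYFP and of Slc11a2 in hTyr (-0.22, 0.0295 against 0.0803). Of the 98 other metal genes, 0 passed between hTyr and EYFP in the IP with only the upper 75% of genes, where Hmox1 was not tested. In the test between fractions 1 passed with sample quality weights, with the length and GC trend removed, with the replicate block and with both, and 0 to 1 without single animals. Between hTyr and EYFP in input, quantile normalization gave -0.01 for Ftl1 and 0.01 for Slc40a1. Removal of the length and GC trend gave -0.02 for Ftl1, 0.02 for Tfrc and Ireb2 and 0.03 for Slc40a1. For Slc11a2 median centring gave 0.01 and quality weights 0.03. Mt3 from input to IP in hTyr was 0.18 with the length and GC trend removed, with or without the replicate block, and its test between fractions 0.01 in both. Aco1 in the test between fractions was -0.02 with quality weights. Without single animals, the hTyr differences in input ran from -0.02 to 0.13 for Fth1, -0.01 to 0.07 for Ftl1, -0.17 to 0.01 for Tfrc, -0.12 to 0.04 for Slc40a1, -0.06 to 0.01 for Slc11a2, -0.11 to 0.02 for Mt1, -0.13 to 0.03 for Mt2 and -0.17 to 0.04 for Mt3. In the IP that of Slc11a2 ran from -0.15 to 0.01. From input to IP, Slc40a1 in EYFP ran from -0.10 to 0.01 and Mt3 in hTyr from -0.22 to 0.13, and in the test between fractions Aco1 ran from -0.01 to 0.10 and Mt3 from -0.29 to 0.06. The planned edgeR fit was not run, and voom was run on the recovered reads in its place. Slc40a1 rests on 46 to 153 reads a library.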
